A study of Homo sapiens with 4 samples.

Results

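The genes described here encode the nuclear subunits of respiratory complexes II, III and IV and of complex V, the ATP synthase. They were found by their symbols (SDHA to SDHD, CYC1, symbols that begin with UQCR or ATP5, and COX symbols of the numbered supernumerary subunits). The rule itself uses no measured values, but it was chosen with earlier results of these data known. The rule found 47 genes among the 20322 targets of the table, of which 4 belong to complex II, 10 to complex III, 14 to complex IV and 19 to complex V. COX4I1, COX7A2L and NDUFA4 are subunits or partners of complex IV whose symbols the rule does not take, and they are given separately. All 4 libraries came from HT-29, an established human colorectal adenocarcinoma line, in which the IMP1 gene (symbol IGF2BP1) had been targeted with CRISPR/Cas9. Libraries labelled null (n = 2) carried an empty PiggyBac vector, and those labelled IMP1-OE (n = 2) a PiggyBac vector with FLAG-IMP1 and a short UTR. The labels give a mouse liver metastasis as the origin and puromycin in the medium of all cells. They do not say whether the lines were single clones or whether replicates were separate cultures, and the p-values below therefore cover the variation among these 4 libraries alone, part of which may be technical.

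As background, complexes II to IV pass electrons from succinate and ubiquinol to oxygen, and complexes III and IV pump protons that drive the ATP synthase. Complex II is encoded entirely in the nucleus. Complexes III, IV and V are assembled from nuclear and mitochondrial gene products, so mRNAs made in separate compartments must supply matching amounts of protein. IMP1 is an RNA-binding protein of fetal tissues and tumours that affects the stability, transport and translation of its mRNA partners. The comparison asks which of these mRNAs differ in level between cells with the FLAG-IMP1 vector and cells with the empty vector.

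The libraries held 9343429 to 10594813 estimated counts, of which the 47 genes took 0.741% to 0.907%. IGF2BP1 stood at 3.62 and 1.75 CPM (counts scaled to a common library size by TMM, as all CPM values here) in null and at 6.76 and 10.6 CPM in IMP1-OE, in the order of the labels. Epithelial markers were present, with KRT8 at 9484 to 12826 CPM and EPCAM at 823 to 1049 CPM, but the intestinal factor CDX1 was at 0 in 3 libraries and CDX2 was at or below 0.285 CPM in the same 3. The summed epithelial list ran from 21237 to 29042 CPM in null and from 26741 to 27454 CPM in IMP1-OE. ALB, CD3E and KDR, which define hepatocytes, T cells and endothelium, were at 0 in every library, and PTPRC of leukocytes was at 0 in 3. The summed lists for fibroblasts and endothelium reached at most 13.6 and 4.76 CPM. The leukocyte list summed to 1447 to 2835 CPM in null and 1759.6 to 1914 CPM in IMP1-OE, nearly all of it LYZ, and the hepatocyte list to 225 to 438 CPM and 686 to 725 CPM, nearly all of it SERPINA1. Null replicate 2 stood apart from the other libraries. Its 21 interferon-stimulated genes summed to 8895 CPM, against 1300.3 CPM in null replicate 1 and 1018 and 1303 CPM in the IMP1-OE libraries, and 20 of the 21 were higher there than in null replicate 1.

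No nuclear subunit mRNA of complexes II to V passed the test between IMP1-OE and null, and most fitted differences were small. Of the 47 genes, 41 passed the low-count filter, and 26 of these differed by less than 1.2-fold between the groups, 14 by 1.2-fold to 1.5-fold and 1, the scarce COX6B2, by more. The median log2 fold change, IMP1-OE over null, was -0.09 for the 41 genes and -0.02 for all 12113 genes tested. It was below 0 for 26 of the 41 genes, where 51.9% of all genes were below 0. With library totals in place of TMM, which moves the values of all genes together, 22 of the 41 were below 0 and their median was -0.01. None of the 41 passed an adjusted p of 0.05 by edgeR's quasi-likelihood test, which called 0 of 12113 genes (0.00%). DESeq2 (1.28% of all genes called), limma-voom (0.00826%) and edgeR with the replicate number as a block (0.124%) called none of the 41 either. The authors' deposited table, which calls 1.28% of its genes, holds the same p-values for the 41 genes as DESeq2 here and is not a further test. It has an adjusted p of at least 0.326 for every one of them. At an unadjusted p under 0.05, edgeR found 1 of 41 against 10.2% of all genes. That gene, UQCRFS1, was on the lower side (5.84% of all genes), and 0 were on the higher side (4.34%). Over the same genes, limma-voom found 3 of 41 (UQCRFS1, COX6C and COX8A, 9.39% of all genes), DESeq2 found 1 (9.93%), edgeR without a low-count filter 2 (11.4%) and edgeR with the block 1 (10.5%). Among all genes with a p, the copy gene ATP5MGL joined them, for 2 of 43 genes by DESeq2 (7.54% of all genes) and 3 of 43 by edgeR without a filter (8.53%).

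The precision allows modest differences to go unseen. The median SE of the 41 log2 fold changes was 0.19, and the 95% interval reached beyond 1.5-fold in at least 1 direction for 33 genes. Every tested gene but COX6B2 had at least 183 counts in each library, and ATP5F1B reached 12453. The gap between the null libraries had a median size of 0.29 log2 units for the 41 genes, against 0.13 between the IMP1-OE libraries and a median size of 0.19 for the fitted difference between the groups. For 25 of the 41 genes (and 60.1% of all genes) the gap between the null libraries was larger than the fitted difference between the groups. The plot of levels by library shows, for genes such as UQCRH, COX7A2 and ATP5F1B, black and grey symbols that lie farther apart than the red and orange ones.

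**Figure D1:**
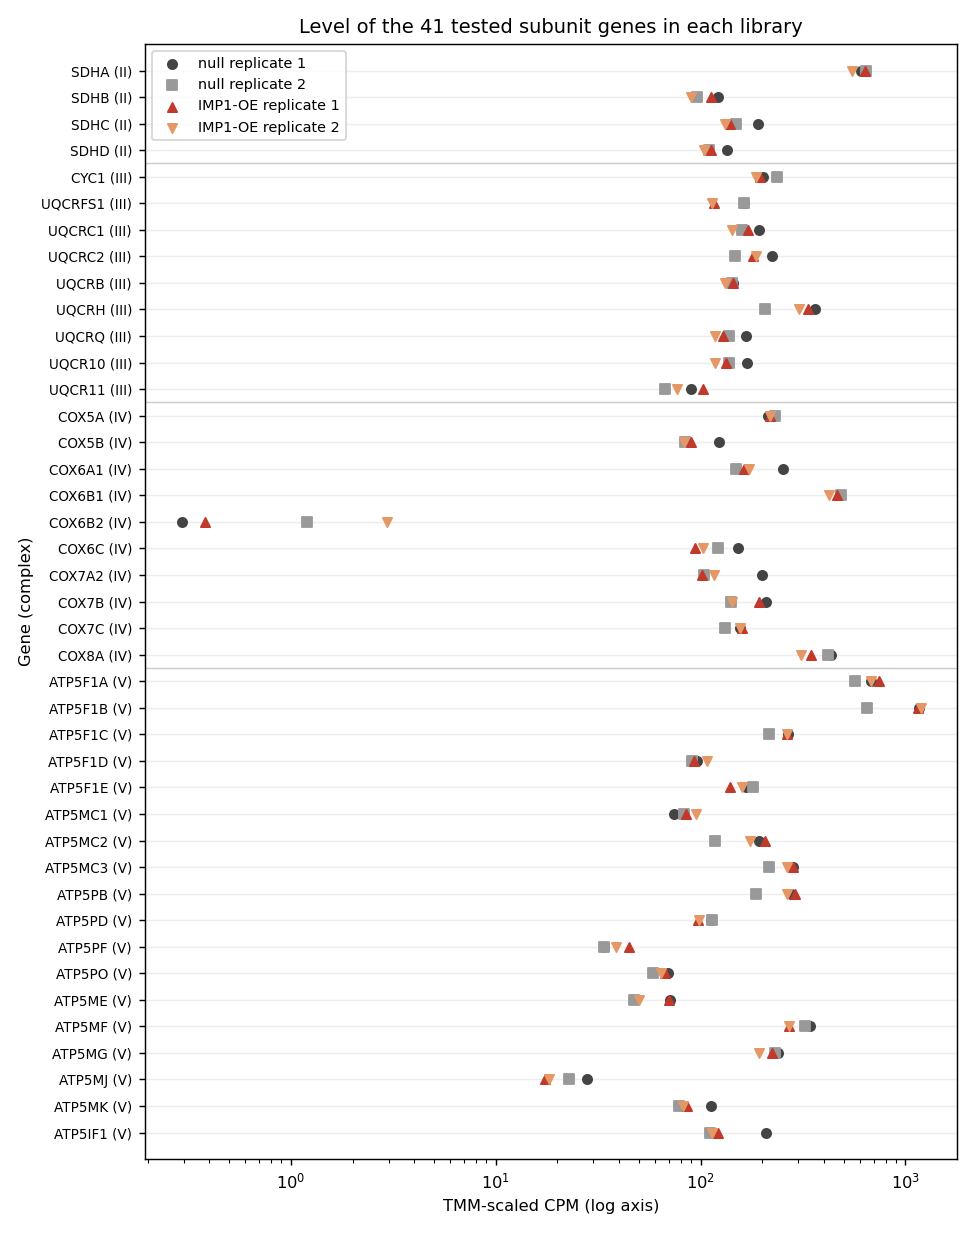
TMM-scaled CPM (log axis) of the 41 tested subunit genes in the 4 libraries, ordered by complex and role. Black circles and grey squares are null replicates 1 and 2, and red and orange triangles IMP1-OE replicates 1 and 2. ATP5F1B stands at 647 CPM in null replicate 2 and at 1146 to 1184 CPM in the other 3 libraries, and COX6B2 is near the floor in all.

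Null replicate 2 was the lower of the null libraries for 32 of the 41 genes, where 49.8% of all genes were, by a median of -0.28 log2 units (0.00 over all genes). It held the lowest level of the 4 libraries for 18 of 41 genes (31.9% of all genes), and null replicate 1 the highest for 24 of 41 (2909 of all 12113 genes). The sign of the median difference therefore turned on which null library was used. The sign of the fitted value changed for 8 of 41 genes without null replicate 1 and for 8 without null replicate 2. Without null replicate 2, 32 of 41 genes were below 0 (49.3% of all genes) with a median of -0.19, and 0 of the 41 were called (0.396% of all genes, 0.248% lower and 0.149% higher). Without null replicate 1, 18 of 41 were below 0 (50.2% of all genes) with a median of 0.08, and 1 was called on the higher side (2.78% of all genes) and 0 on the lower (3.68%). The part of the interferon genes, which moved with null replicate 2, in these values was not tested.

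**Figure D2:**
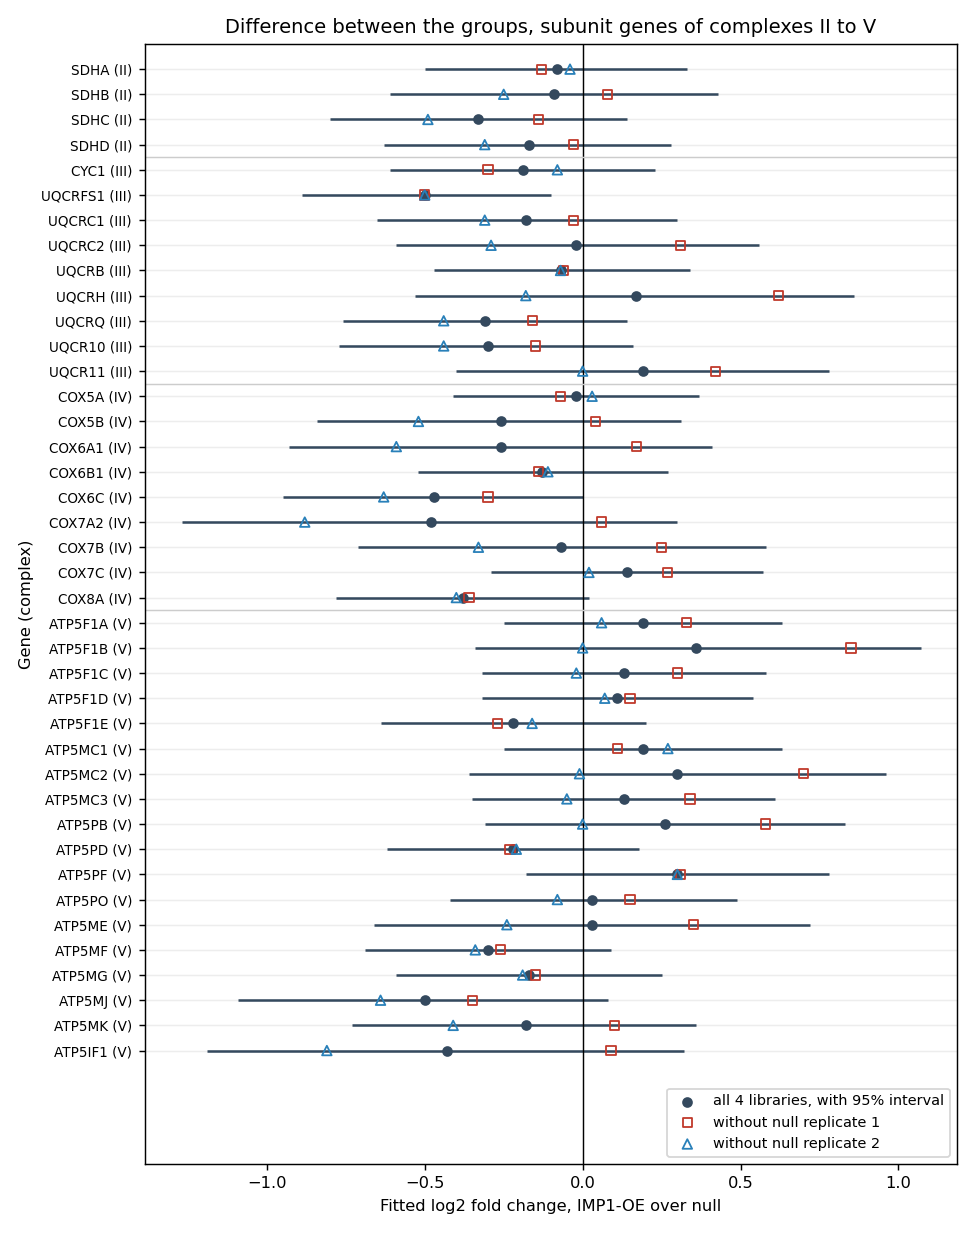
Fitted log2 fold change (IMP1-OE over null) of 40 subunit genes, with the 95% interval from edgeR as a line, and the value without null replicate 1 (red squares) and without null replicate 2 (blue triangles). COX6B2 is left out for its low counts. All symbols of UQCRFS1 and COX8A lie on the left of 0, while those of COX7A2, ATP5F1B and UQCRH are spread widely.

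Promoters were examined for what the members share beyond their symbols. RefSeq sequences (GRCh38.p14, 250 bases before to 50 after the start) matched 36 of the 47 genes by symbol. An NRF1 motif (GCGCA, any base, then GCGC, on either strand) was found in 11 of 36 (30.6%), against 7.39% of 22199 promoters of protein-coding genes of the same length. An ETS motif (CCGGAAG, either strand, where CTTCCGGAAG counts for both strands) was found in 14 of 36 (38.9%) against 12.8%, and the YY1 motif AAGATGGCG in 3 of 36 (8.33%) against 2.41%. The Sp1 motif GGGCGG was at 55.6% against 56.3%, the CCAAT box at 44.4% against 34.7% and the TATA box (TATAAA) at 11.1% against 9.47%. The promoters compared with were not limited to genes expressed in these cells. NRF1 and the ETS factor GABP are known as regulators of respiratory genes. A match is a description of the letters and not a bound site. To show the letters behind these counts, windows of genes described below are printed 5′ to 3′ on the gene's strand, with the motif in capitals.
UQCRFS1, NRF1, chr19:29213163-29213192, minus strand: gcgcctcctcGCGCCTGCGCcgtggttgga
ATP5F1C, NRF1, chr10:7788145-7788174, plus strand: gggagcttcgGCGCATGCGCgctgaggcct
SDHA, NRF1, chr5:218144-218173, plus strand: ggtccgctttGCGCAGGCGCggcgccccca
SDHA, NRF1, chr5:218193-218222, plus strand: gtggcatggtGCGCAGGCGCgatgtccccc
SDHA, NRF1, chr5:218242-218271, plus strand: ccggcgtggtGCGCAGGCGCggtatccccc
UQCRH, ETS, chr1:46303641-46303670, plus strand: agtgtgccgcaCTTCCGGccagatcgccgg
UQCRQ, ETS, chr5:132866577-132866606, plus strand: aatggtatctcCCGGAAGttacctcacgac
ATP5PF, YY1, chr21:25735092-25735121, minus strand: aggcgaagaaAAGATGGCGgaggctgtgcc
UQCRFS1, with a fitted value of -0.50, and ATP5F1C, with 0.13, both hold the NRF1 motif close to the start, with its last base 22 and 13 bases before it. SDHA holds it 4 times, and the 3 copies shown share the letters GCGCAGGCGC.

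Complex II oxidises succinate and belongs both to the respiratory chain and to the citric acid cycle. All 4 of its mRNAs had fitted values slightly below 0, with a median of -0.13 (-0.08 without null replicate 1 and -0.28 without null replicate 2). SDHA, the flavoprotein that binds succinate, stood at 609 and 645 CPM in null and 636 and 547 CPM in IMP1-OE, a log2 fold change of -0.08 (SE 0.17, edgeR adjusted p = 0.897). SDHB, the iron-sulphur subunit, was at 121 and 96.3 CPM in null and 113 and 89.8 CPM in IMP1-OE. These groups overlap, and the higher library of each group is replicate 1. The membrane anchor SDHC was at 190.2 and 149 CPM in null against 139.6 and 131 CPM, a log2 fold change of -0.33 (SE 0.19, edgeR adjusted p = 0.602). Its groups did not overlap, but without null replicate 1 the value was -0.14. SDHD, the other anchor, was at 134 and 110 CPM against 112 and 104 CPM. Per kilobase of effective target length, SDHA was the highest of the 4 at 228 CPM per kb and SDHD the lowest at 87.3, a 2.61-fold range.

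In complex III, which passes electrons from ubiquinol to cytochrome c, the smallest p of all 41 genes was found. Of its 9 tested genes, 7 had fitted values below 0 with a median of -0.18, and the median was -0.06 and -0.29 without null replicates 1 and 2. UQCRFS1 encodes the Rieske iron-sulphur protein, which takes electrons from ubiquinol. It stood at 162 CPM in both null libraries and at 116 and 114 CPM in IMP1-OE. The groups were separate and their libraries close together, with a log2 fold change of -0.50 (95% interval -0.89 to -0.10, unadjusted p = 0.0218, edgeR adjusted p = 0.453). The value was -0.50 without either null library and -0.51 and -0.47 without an IMP1-OE library. This follows from libraries that were nearly equal within each group, in a gene picked for the smallest p. It is no separate support for the size. No setting brought the adjusted p of UQCRFS1 under 0.05. The authors' deposited table puts UQCRFS1 at -0.31 on the log2 scale, adjusted p = 0.326. DESeq2 run here gave -0.49 with the same adjusted p, so the smaller deposited value does not come from a different test result. CYC1, the cytochrome of this complex, was at 202 and 235 CPM in null against 196 and 187 CPM, and the hinge protein gene UQCRH at 361 and 206 CPM against 336 and 301 CPM. UQCRH shows the null libraries apart from each other, with the IMP1-OE libraries between them. Without null replicate 1 its log2 fold change was 0.62 (edgeR adjusted p = 0.0704) and without null replicate 2 it was -0.18.

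The core proteins UQCRC1 and UQCRC2, which face the matrix, had log2 fold changes of -0.18 and -0.02. UQCRC2 stood at 223 and 147 CPM in null and at 180 and 186 CPM in IMP1-OE, again between the null libraries. Of the small subunits, UQCRQ was at 167 and 138 CPM against 128 and 118 CPM, and UQCR10 at 169 and 138 CPM against 133 and 117 CPM. Their groups did not overlap, yet each lay close to the lower null library, with fitted values of -0.31 and -0.30. UQCRB, at 144 and 143 CPM against 144 and 131 CPM, hardly differed between any libraries. UQCR11 stood at 90.2 and 67.3 CPM against 103 and 77.0 CPM. UQCRHL, a near-identical copy of UQCRH, took 1 to 7 counts per library and did not pass edgeR's filter, and fragments shared with UQCRH could not be told apart.

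Complex IV, cytochrome c oxidase, reduces oxygen to water around a core encoded in the mitochondrial genome, and the nuclear genes here encode the small subunits that surround it. HT-29 cells used the general forms of these subunits. COX6A1, COX6B1, COX7A2, COX7B and COX8A lay between 102 and 486 CPM in every library. COX6A2 and COX7A1, the forms of heart and skeletal muscle, and COX7B2 and COX8C, the forms of testis, had no count in any library, which allows up to 0.285 to 0.328 CPM per library (3 counts, counting error only). The testis form COX6B2 took 3 and 11 counts in null and 4 and 31 in IMP1-OE. Its groups overlap, and the higher library of each is replicate 2. COX4I2, the lung form of the subunit left out by the rule, took at most 0.328 CPM.

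The fitted values of 8 of the 10 tested complex IV genes were below 0, with a median of -0.19. This turned to 4 of 10 and a median of 0.05 without null replicate 1, and without null replicate 2 it was 7 of 10 and -0.36. COX6C had the smallest p, at 152 and 121 CPM in null against 93.4 and 103 CPM in IMP1-OE (log2 fold change -0.47, SE 0.19, unadjusted p = 0.0508, edgeR adjusted p = 0.491). COX8A, among the most abundant of these mRNAs, was at 432 and 421 CPM against 344 and 309.8 CPM (-0.38, SE 0.16, edgeR adjusted p = 0.501). Both genes had groups that did not overlap. The log2 fold change of COX8A was -0.36 and -0.40 without null replicates 1 and 2, and that of COX6C -0.30 and -0.63. COX7A2L, a relative of COX7A2 that takes part in supercomplex assembly, was likewise at 68.5 and 66.4 CPM against 51.9 and 49.6 CPM (-0.41, SE 0.17, edgeR adjusted p = 0.501).

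Other complex IV genes were high in a single null library. COX7A2 stood at 200.2 CPM in null replicate 1 and at 104, 102 and 116 CPM in null replicate 2 and the IMP1-OE libraries. Its fitted value of -0.48 (SE 0.32) became 0.06 without null replicate 1 and -0.88 without null replicate 2. COX6A1, at 253 CPM in null replicate 1 and 149 to 173 CPM elsewhere, and COX5B, at 123 CPM and 83.2 to 89.3 CPM, had the same shape. COX5A, a matrix-facing subunit, was the steadiest, at 214 and 230 CPM in null and 219 CPM in both IMP1-OE libraries (-0.02, 95% interval -0.41 to 0.37). COX6B1 was at 479 and 486 CPM against 462 and 422 CPM, and COX7B at 209.7 and 140.4 CPM against 192 and 142 CPM. COX7C was the only complex IV gene with separate groups above null, at 156 and 131 CPM against 159.8 and 156 CPM, where null replicate 1 nearly reached the IMP1-OE libraries. COX4I1, the largest nuclear subunit, was at 262 and 184 CPM against 286 and 231 CPM, and NDUFA4, now counted to complex IV, at 265 and 159 CPM against 248 and 228 CPM. CYCS, the gene of cytochrome c, was at 188 and 109 CPM against 194 and 171 CPM. These 3 had overlapping groups and their lowest level in null replicate 2, without which the log2 fold changes were -0.02 for COX4I1, -0.16 for NDUFA4 and -0.04 for CYCS, against 0.21, 0.16 and 0.29 with all libraries.

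Of the 18 tested genes of complex V, 11 had fitted values above 0 (48.1% of all genes), with a median of 0.07. Without null replicate 2, 6 of 18 were above 0 with a median of -0.06, and without null replicate 1, 13 of 18 with a median of 0.15. The F1 head, where ATP is made, had 4 of 5 genes above 0, the membrane ring of subunit c 3 of 3 and the peripheral stalk 3 of 4, while of the 5 small membrane subunits tested 1 was above 0. Without null replicate 2 the counts above 0 were 3 of 5, 1 of 3, 2 of 4 and 0 of 5. None passed the test with all libraries, and the difference between these subassemblies was not tested.

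ATP5F1B, the catalytic beta subunit, was the most abundant of all 47 mRNAs by CPM. It stood at 1163 CPM in null replicate 1, 647 CPM in null replicate 2 and 1146 and 1184 CPM in IMP1-OE. Null replicate 1 lay among the IMP1-OE libraries and null replicate 2 alone was low. With all libraries the log2 fold change was 0.36 (SE 0.29, edgeR adjusted p = 0.703). Without null replicate 1 it was 0.85 with an edgeR adjusted p of 0.0207, the only call of a subunit gene in any setting tried (6.46% of all genes were called there), and without null replicate 2 it was 0.00. ATP5F1A, the alpha subunit, stood at 680.5 and 564 CPM against 744 and 675 CPM, and ATP5F1C, the gamma subunit of the rotating stalk, at 268 and 215 CPM against 263 and 264 CPM. ATP5F1D was at 95.7 and 90.7 CPM against 93.2 and 108 CPM. ATP5F1E, the epsilon subunit, was the 1 member of the head below 0, at 167 and 180.1 CPM against 139 and 159 CPM (-0.22, SE 0.17).

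The c ring turns as protons pass, and its subunit is encoded by 3 genes whose mature proteins are the same, so their mRNAs add to a single product. ATP5MC1 was at 74.3 and 83.2 CPM against 84.6 and 95.0 CPM, with groups that just failed to meet. ATP5MC2 stood at 192 and 117 CPM against 207 and 175 CPM, and ATP5MC3 at 283 and 215 CPM against 281 and 264 CPM. In both, null replicate 2 was the lowest library. Summed over the 3 genes, the level was 549.6 and 415 CPM in null and 572 and 534 CPM in IMP1-OE. The fitted values were 0.19, 0.30 and 0.13, and without null replicate 2 those of ATP5MC2 and ATP5MC3 were -0.01 and -0.05.

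The peripheral stalk holds the head still. Its subunit b gene ATP5PB was at 277 and 186 CPM against 289 and 265 CPM (0.26, SE 0.23), and 0.00 without null replicate 2. ATP5PF, coupling factor 6, had tight null libraries, at 33.9 and 33.6 CPM, below 44.6 and 38.7 CPM in IMP1-OE (0.30, SE 0.19, edgeR adjusted p = 0.635). ATP5PD lay on the other side, also with close libraries, at 113 and 114 CPM against 97.4 and 98.1 CPM (-0.22, SE 0.16). ATP5PO was at 69.1 and 58.9 CPM against 66.8 and 64.3 CPM.

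The small membrane subunits, which shape ATP synthase dimers and cristae, had fitted values below 0 for 4 of 5. ATP5MF, the subunit f gene, was at 342 and 322 CPM against 270 and 269.7 CPM (-0.30, SE 0.16, edgeR adjusted p = 0.565). Its groups were separate and its value was -0.26 and -0.34 without null replicates 1 and 2. A target that joins ATP5MF to PTCD1 took 318 to 468 counts and shares sequence with it, so the level of ATP5MF is uncertain. ATP5MJ, a small proteolipid, was at 27.8 and 22.7 CPM against 17.4 and 18.2 CPM (-0.50, SE 0.24, edgeR adjusted p = 0.531). ATP5MG was at 238 and 229.8 CPM against 223 and 192 CPM, ATP5MK at 112 and 78.6 CPM against 85.6 and 82.3 CPM, and ATP5ME at 71.1 and 47.3 CPM against 70.4 and 50.2 CPM. ATP5MGL, a near-identical copy of ATP5MG, took 1 and 0 counts in null and 8 and 19 in IMP1-OE. It did not pass edgeR's filter, and DESeq2 gave it an unadjusted p of 0.0366 (adjusted p = 0.433). ATP5IF1, which blocks the synthase from running backwards, stood at 208 CPM in null replicate 1 and at 111, 122 and 114 CPM in the other libraries. Its fitted value of -0.43 (SE 0.31) became 0.09 without null replicate 1 and -0.81 without null replicate 2.

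Groups did not overlap for 16 of the 41 genes, against 43.2% of all genes. They lay on the lower side in IMP1-OE for 13 (21.9% of all genes) and on the higher side for 3 (21.3% of all genes), the latter being COX7C, ATP5MC1 and ATP5PF. At an unadjusted p under 0.05 without null replicate 2, 13 genes were lower (6.70% of all genes) and 0 higher (7.23%), among them SDHC, UQCRQ, COX7A2, COX6A1, ATP5MJ and ATP5IF1. Without null replicate 1, 2 were lower (12.2% of all genes) and 5 higher (12.7%), the latter being ATP5F1A, ATP5F1B, ATP5MC2, ATP5PB and UQCRH. UQCRFS1 and COX8A were the genes on the lower side in both. These shares describe pairs of libraries against 1 library and are not replicated.

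Levels per length within a complex were far from equal. Per kilobase of effective target length, averaged over the 4 libraries, ATP5MF at 1067 CPM per kb, COX6B1 at 994 and COX8A at 799.9 were the highest of all members, and ATP5MJ at 31.4 and UQCRB at 16.6 the lowest apart from the tissue-specific forms and copies. The medians of the complexes were closer, at 112 (II), 156 (III), 183 (IV) and 163 (V) CPM per kb. Each of these values rests on the length of 1 deposited target per gene, such as 305 nt for ATP5MF, 2444 nt for COX7B and 8459 nt for UQCRB. The transcripts present in the cells were not determined, so the order and the medians may follow the choice of target. By CPM, without length, UQCRB averaged 143 in null and 137 in IMP1-OE, and ATP5MF 332 and 269.8. Pearson's r was 0.968 to 0.989 between log2 levels per length of any 2 libraries over the 41 genes, which share their target lengths and span a wide range down to COX6B2. Neighbours were close or changed places between the groups. ATP5MF averaged 1178 CPM per kb against 1037 for COX6B1 in null, and 957 against 951 in IMP1-OE, while UQCRH averaged 552 against 521 for ATP5F1B in null and 619.5 against 671 in IMP1-OE.

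**Figure D3:**
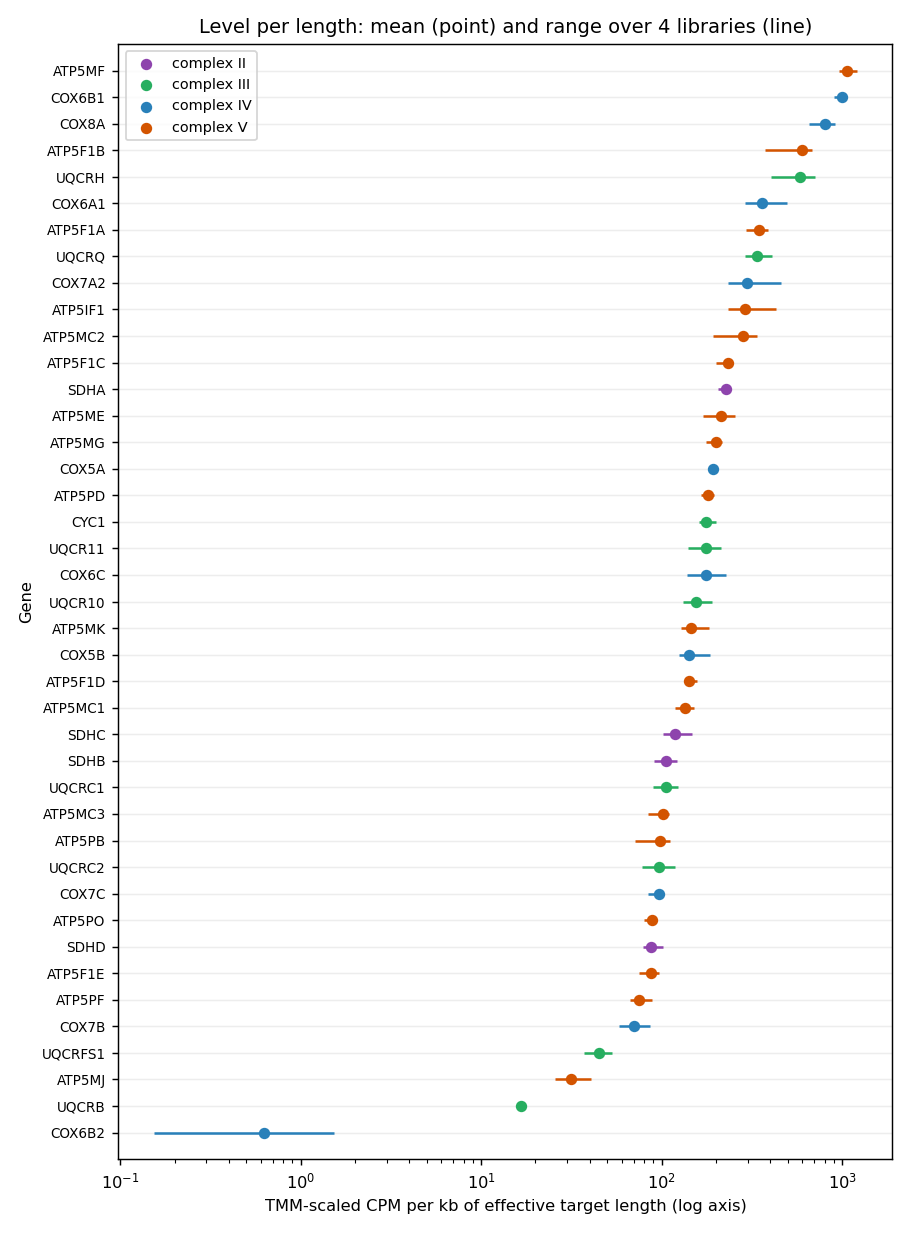
Level of the 41 tested genes as TMM-scaled CPM per kilobase of effective target length (log axis), ordered by the mean over 4 libraries (point), with the range over the libraries (line) and coloured by complex. Genes of complexes III, IV and V are spread widely, from UQCRB at 16.6 to ATP5MF at 1067 CPM per kb, with COX6B2 below them.

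The mRNA levels of partner genes in the mitochondrial genome were also read. All 6 genes of complexes III to V had lower levels in both IMP1-OE libraries than in either null library (21.9% of all genes). Of the 7 mitochondrially encoded genes of complex I, 2 were lower in this way and 1 had a fitted value above 0. The median log2 fold change of these 7 was -0.55, and it was -0.95 and -0.10 without null replicates 1 and 2. MT-CO1, the catalytic subunit of complex IV, was at 1450.4 and 1282 CPM in null against 599.8 and 748 CPM (log2 fold change -1.02, SE 0.19, edgeR adjusted p = 0.408), and MT-CO2 at 935 and 722 CPM against 444 and 429 CPM. These passed in the authors' deposited table (1.28% of its genes called), with adjusted p of 6.55e-04 and 0.00632. MT-CO3 was at 162 and 167 CPM against 60.6 and 117 CPM, MT-CYB of complex III at 125 and 161 CPM against 70.1 and 113 CPM, MT-ATP6 of complex V at 118 and 179 CPM against 51.7 and 85.9 CPM, and MT-ATP8 at 133 and 93.6 CPM against 90.5 and 48.8 CPM. The median log2 fold change of the 6 was -0.91, and it was -0.87 and -0.90 without null replicates 1 and 2. Without null replicates 1 and 2, the log2 fold changes were -0.73 and -1.10 for MT-CO2 and -0.93 and -1.11 for MT-CO1. All libraries were made from cleared detergent lysates.

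The ratio of these mRNAs to the nuclear mRNAs of the same complex was formed within each library, from median levels per length. In complex IV the ratio was 4.62 and 4.44 in null and 2.39 and 2.86 in IMP1-OE, or 4.53 ± 0.130 against 2.63 ± 0.330 (mean ± SD, n = 2). In complex V it was 2.40 and 2.58 against 1.86 and 1.21. The groups were separate in both complexes, and null replicate 2 lay next to null replicate 1. In complex IV the median of the 3 mitochondrial genes was the level of MT-CO1 in every library. In complex V the close null values came from 2 targets whose measured levels went in opposite directions. Whether this was a difference in mRNA or in how short fragments were recovered or assigned was not tested, so the complex V ratio is uncertain. The log2 ratio of null replicate 2 over null replicate 1 was 0.60 for MT-ATP6 and -0.50 for MT-ATP8. In complex III, with the single MT-CYB, the ratio of mitochondrial to nuclear levels was 0.646 and 1.03 against 0.422 and 0.776, and the groups overlapped. No p is given, since the smallest that exact permutation of 2 against 2 libraries allows (two-sided) is 0.333.

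**Figure D4:**
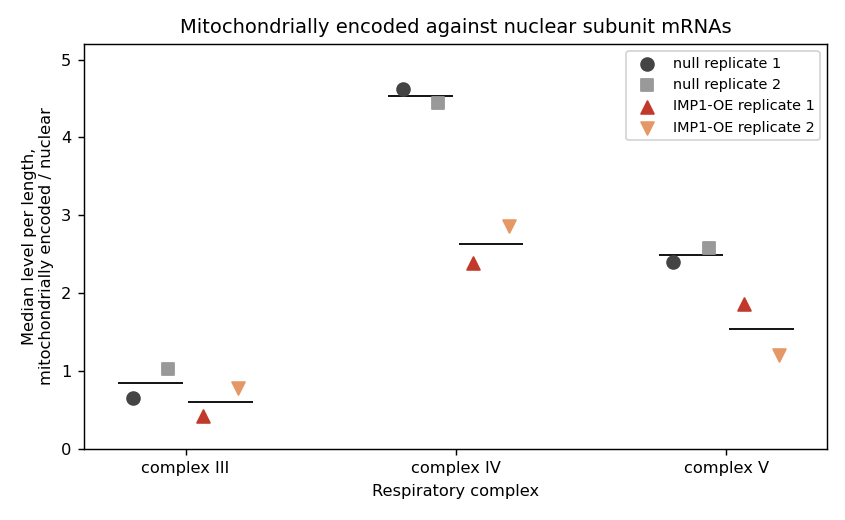
Ratio of the median level per length of mitochondrially encoded to nuclear subunit mRNAs in complexes III, IV and V, with 1 symbol per library and a line at the mean of each group. The null libraries lie at 4.62 and 4.44 in complex IV, above both IMP1-OE libraries at 2.39 and 2.86.

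Genes around the complexes were read from lists, none of whose members passed an edgeR adjusted p of 0.05 with all 4 libraries. Nuclear subunits of complex I, the entry point for NADH, were below 0 for 26 of 37 (51.9% of all genes), with a median of -0.06. This turned to 15 of 37 and a median of 0.10 without null replicate 1, and without null replicate 2 it was 29 of 37 and -0.17. Groups were separate for 12 of 37 (43.2% of all genes), on the lower side for 11 (21.9%) and on the higher for 1 (21.3%). NDUFA3 was the lowest by p, at 117 and 118 CPM against 75.8 and 73.1 CPM (-0.66, SE 0.17, edgeR adjusted p = 0.435). Assembly factors of complexes II to V had 26 of 45 genes above 0 (48.1% of all genes) and a median of 0.05. Without null replicate 2 this turned to 16 of 45 and a median of -0.14, and without null replicate 1 it was 29 of 45 and 0.21. SURF1, a complex IV assembly factor, stood at 31.9 and 28.3 CPM against 17.9 and 15.6 CPM (-0.85, SE 0.23, unadjusted p = 0.0103, edgeR adjusted p = 0.435), with separate groups. All 6 complex V assembly factors were below 0 (median -0.52), ATPAF2 at 8.90 and 12.6 CPM against 4.57 and 7.60 CPM, while all 6 tested complex III factors were above 0 (median 0.38), UQCC3 at 6.46 and 6.89 CPM against 10.2 and 8.94 CPM.

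Citric acid cycle genes were split, with 6 of 13 above 0 (48.1% of all genes) and a median of -0.01. CS, citrate synthase, stood at 315 and 173 CPM against 371 and 360.4 CPM, and IDH3A at 41.2 and 39.7 CPM against 53.4 and 57.0 CPM (0.45, SE 0.18, edgeR adjusted p = 0.487). Genes of mitochondrial import, pores and carriers were above 0 for 14 of 17 (48.1% of all genes), with a median of 0.20. VDAC2, an outer membrane channel, was at 207 and 167 CPM against 293 and 279 CPM (0.61, SE 0.18, edgeR adjusted p = 0.447), and the ADP/ATP carrier SLC25A6 at 152 and 109.5 CPM against 179.8 and 210.5 CPM. Of the regulators of respiratory genes, 10 of 12 were above 0 (48.1% of all genes) with a median of 0.08. NRF1, a transcription factor of many subunit genes, was at 19.4 and 13.8 CPM against 22.2 and 20.0 CPM. Without null replicate 2 the medians were -0.09, 0.04 and 0.07 for the 3 lists, and without null replicate 1 they were -0.02, 0.29 and 0.27. Without null replicate 1 the log2 fold changes were 1.08 for CS, 0.78 for VDAC2 and 0.83 for SLC25A6. Without null replicate 2 they were 0.22, 0.47 and 0.36.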

How the data were processed

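Per the labels' protocols, RNA of cleared lysates was fragmented, pieces of 18 to 50 nt were kept, ribosomal RNA was depleted and cDNA amplified. The submitters' processing notes list kallisto 0.46.2, HISAT2 2.1.0, fastp 0.21, cutadapt 3.5 and DESeq, and give no role for any. The values the authors deposited are estimated counts, 1 transcript per gene, all whole as deposited, with effective lengths. The deposited comparison table holds a normalized mean signal, log2 fold changes with SE, and p-values. The sources used here do not state the genome build, the annotation or whether molecular identifiers were collapsed. Groups were taken from the titles. Rows of 2 more sample names, which fit none of the labels, were left aside.

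Counts were tested with edgeR 4.0.16 in R 4.3.3 (TMM, default filter, quasi-likelihood F test, Benjamini-Hochberg adjustment over 12113 genes, threshold 0.05), on IMP1-OE against null with no covariate. SE is the log2 fold change over the root of F. DESeq2 1.42.0 and limma 3.58.1 were alternatives. Libraries of a group differed by more than counting noise (chi-square per degree of freedom 55.3 in null, 19.2 in IMP1-OE). All 47 gene identifiers matched the table of gene names. Every subunit gene could be named; of other lists, at most the 3 smallest p per direction, all mitochondrially encoded genes of complexes III to V and the subunits outside the rule. Per-library values of further subunit genes, and of marker genes, were added after their values were seen. Members and lists were chosen with earlier results of these data known. Steps were tested on simulated data.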

Additional observations from a re-analysis of the deposited data

How the results depend on the processing

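No subunit gene was called in any alternative except ATP5F1B without null replicate 1, so the number called ran from 0 to 1 when a library was left out. Leaving out a library keeps 1 library in an arm, which is assumed to vary like the others. The number of all genes called was 164 with DESeq2, 1 with limma-voom, 22 with no low-count filter and 15 with the replicate block, and 0 to 783 with a library left out (783 without null replicate 1, 48 without null replicate 2). The number of subunit genes at an unadjusted p under 0.05 was 3 with limma-voom (9.39% of all genes), 2 with no low-count filter (11.4%) and 0 to 13 with a library left out (13 without null replicate 2, where 6.70% of all genes were lower). Their median log2 fold change ran from -0.21 to 0.08 with a library left out and from -0.10 to -0.01 elsewhere. The replicate numbers are shared by the groups, but no label says that they mark a common culture or day. Deviations of equal numbers had a Pearson correlation of 0.123 over all genes tested and of 0.659 over the 41 subunit genes. The log2 ratios of replicate 2 over replicate 1 in null and in IMP1-OE gave Pearson's r of 0.75 over the 41 genes. Spearman's rho for the same ratios was 0.16. The scarce COX6B2 had ratios of 2.04 in null and 2.95 in IMP1-OE. With the replicate block 1 subunit gene had an unadjusted p under 0.05 by edgeR (10.5% of all genes) and 0 were called.

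Signs of log2 fold changes near 0 turned. With library totals only, UQCRC2 was at 0.06, UQCRB at 0.02, COX5A at 0.06 and COX7B at 0.02, and UQCRC2 was at 0.01 with limma-voom and with the replicate block. With a library left out, the range was -0.20 to 0.03 for SDHA, -0.27 to 0.08 for SDHB, -0.29 to 0.31 for UQCRC2, -0.13 to 0.01 for UQCRB, -0.18 to 0.62 for UQCRH, -0.03 to 0.42 for UQCR11, -0.07 to 0.03 for COX5A, -0.52 to 0.04 for COX5B, -0.59 to 0.17 for COX6A1, -0.93 to 2.46 for COX6B2, -0.88 to 0.06 for COX7A2, -0.33 to 0.25 for COX7B, -0.02 to 0.30 for ATP5F1C, -0.01 to 0.70 for ATP5MC2, -0.05 to 0.34 for ATP5MC3, -0.08 to 0.15 for ATP5PO, -0.24 to 0.35 for ATP5ME, -0.41 to 0.10 for ATP5MK and -0.81 to 0.09 for ATP5IF1. The cause was not tested. The other 22 tested subunit genes kept their sign in every alternative.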
